A study of Arabidopsis thaliana with 12 samples.

Results

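Transcription factors of the MYB, NAC, bHLH and bZIP families were followed on 12 Affymetrix ATH1 arrays of Arabidopsis thaliana seedlings. A probe set was taken as a member if the platform annotation paired it with exactly 1 gene whose symbol, without a leading At or A and ignoring case, begins with one of these 4 family names. The rule found 21 members among 13513 probe sets with 1 gene, of 22810 on the array. They are 14 bZIP genes, 5 bHLH genes, 1 gene named after MYB (MYBC1) and 1 NAC gene (NAC014). Of 50 further MYB-type genes and 23 NAC genes looked up by locus, the annotation paired 1 and 0 with a probe set of their own, so these large families are hardly covered and the members are mainly bZIP factors. The annotation gives 11933 of the 13513 genes by locus number only.

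All seedlings were 5 days old, of the Columbia background, and had grown in liquid culture. The 4 groups of 3 arrays were Zat12 seedlings given 20 mM H2O2 for 1 hour, untreated Zat12 seedlings, wildtype seedlings given H2O2 in the same way, and untreated wildtype. The Zat12 seedlings are transgenic and express the zinc finger protein Zat12 constitutively from the cauliflower mosaic virus 35S promoter, and the labels do not give the number of independent lines. The annotation used here pairs no probe set with the Zat12 gene, so its over-expression was not checked. Nothing in the labels ties replicates to separate cultures. The p-values therefore measure only how far these arrays scatter, and that scatter may be technical.

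The bZIP proteins bind DNA as dimers held together by a leucine zipper, mostly at sites with an ACGT core, and plants sort them into lettered groups by sequence. BZIP17, BZIP28 and BZIP60 carry the unfolded protein response, the programme that raises folding capacity in the endoplasmic reticulum: BZIP17 and BZIP28 are anchored in its membrane and are cut free under stress, and the BZIP60 mRNA is spliced by the sensor kinase IRE1. The bHLH proteins bind E-box sites as dimers, and all 5 bHLH members act in the response to iron deficiency. MYBC1 is a protein with a single MYB-like domain described as a negative regulator of freezing tolerance, and NAC factors share a DNA-binding domain found in plants.

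The deposited values are linear MAS5 signals, in arbitrary units and scaled by the authors to a common mean per array, and every level below is such a signal. One array, untreated Zat12 replicate 2, had empty cells for 28.1% of its probe sets, among them 8 members, so 2 arrays stand for untreated Zat12 in those cases. The array's control for 25S ribosomal RNA gave signals of 133 to 286 in treated Zat12 and 96.3 to 275 in untreated Zat12. In wildtype it gave 126 to 295 with H2O2 and 32.9 to 125 without, so every treated array lay above every untreated one. The closest wildtype arrays were replicate 3 of each group, at 125.7 with H2O2 and 125.3 without. The adjustment for this control is fitted to differences between arrays within the 4 groups, so an adjusted wildtype value can be computed. Because the control goes with treatment in wildtype, values adjusted for it do not settle a wildtype call by themselves. The genes chosen to check the tissue could not do so, since 0 of 9 shoot markers, 0 of 3 seed markers and 1 of 9 root markers had a named probe set. That marker, the root hair expansin EXPA7, read 37.4, 41.5 and 44.3 in treated Zat12 against 104, 112 and 76.9 in untreated Zat12, a drop (log2 fold change -1.18, limma adjusted p = 9.42e-05). It read 36.8, 47.6 and 52 in treated wildtype against 52.8, 73.7 and 66.9 in untreated wildtype (-0.48, adjusted p = 0.0614). Its part in the results below was not tested, and in whole seedlings fewer cells of a type and less RNA per cell cannot be told apart.

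Probe sets were tested if their mean log2(signal + 3) was above the 40th percentile, a signal of 28.1. Of the 21 members 13 passed: 8 of 14 bZIP genes, 4 of 5 bHLH genes and MYBC1. The other 8, NAC014 among them, had signals between 0.697 and 42 on single arrays and are described at the end. A member was called changed if its p from limma, adjusted by Benjamini and Hochberg's method over the 13647 probe sets tested, was below 0.05.

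Hydrogen peroxide moved the same 5 members in both genotypes. BZIP60, BZIP28 and BZIP53 rose, the first and the last by about a doubling, and BZIP61 and MYBC1 fell. In Zat12 seedlings 5 of 13 members were called, 3 higher and 2 lower, where 17.3% of all tested probe sets were called, 8.16% higher and 9.12% lower. In wildtype 5 of 13 were called, again 3 higher and 2 lower, where 22% of all probe sets were called, 9.59% higher and 12.4% lower. Called in the same direction in both genotypes were 5 of 13 members, or 38.5%, and 12.1% of all tested probe sets. The H2O2 comparisons share no arrays, but both use the same estimate of spread for each probe set, so their calls are not independent. The difference between these shares was not tested. The share among members also depends on which genes carry a family symbol. Of 11 tested genes of these families under another symbol, 1 was called in Zat12 and 2 in wildtype. Among them, 0 of 5 bZIP genes were called in either genotype. With synonyms of the RefSeq gene table added to the choice of members, 5 of 19 were called in each genotype. Groups that do not overlap, used below as a description, were common over all probe sets. Every treated array lay above every untreated one for 13.9% in Zat12 and 14.6% in wildtype, and below for 25.7% in Zat12 and 22.7% in wildtype. The median log2 fold change of the 13 was -0.05 in Zat12 and 0.02 in wildtype, beside medians of -0.09 and -0.07 over all tested probe sets.

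**Figure D1:**
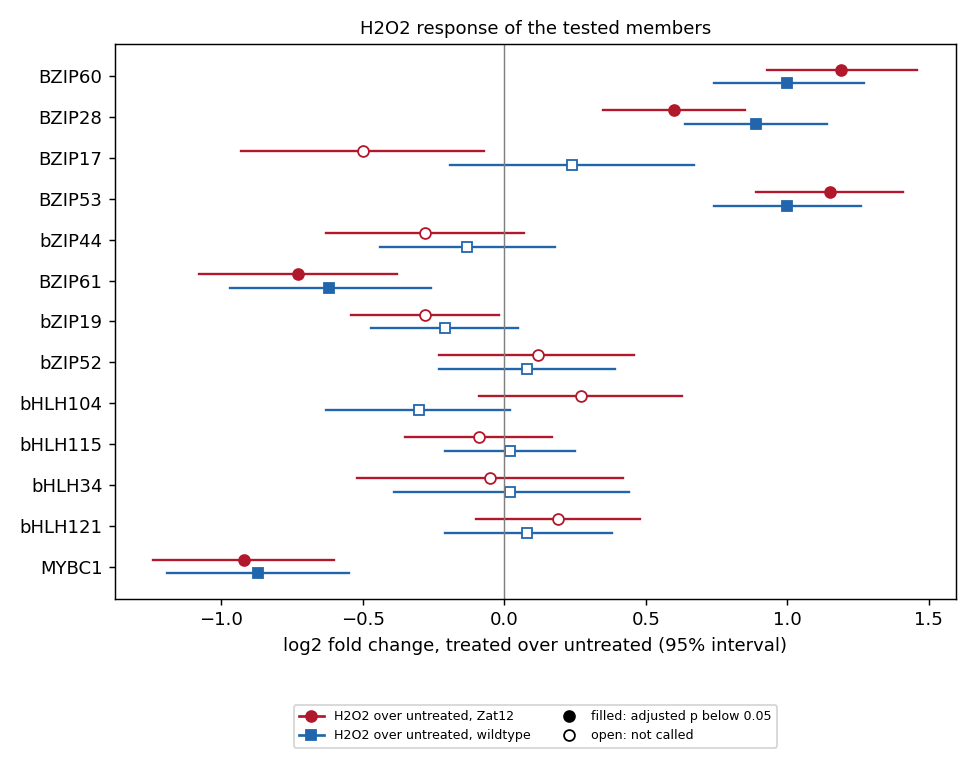
Log2 fold change of treated over untreated seedlings (x axis) for the 13 tested members (rows), in Zat12 (red circles) and wildtype (blue squares), with unadjusted 95% intervals as lines; filled symbols are called at an adjusted p below 0.05. BZIP60, BZIP28 and BZIP53 lie above 0 and BZIP61 and MYBC1 below 0 in both genotypes, and the intervals of the 4 bHLH genes include 0.

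Among the factors of the unfolded protein response, BZIP60 (AT1G42990) had signals of 349, 349.8 and 348 on the treated Zat12 arrays against 173, 133 and 148 on the untreated ones. Wildtype arrays gave 279.9, 324 and 297 with H2O2 against 149, 169.8 and 128 without. Every treated array lay far above every untreated one, and the 3 treated Zat12 arrays differed by little, at 349 ± 1.19 (SD, n = 3). The log2 fold change was 1.19 (SE 0.13, limma adjusted p = 1.29e-06) in Zat12 and 1.00 (SE 0.13, adjusted p = 1.11e-05) in wildtype. The deposited table holds 1 probe set for this gene, which gives a transcript level and not the share of spliced mRNA.

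BZIP28 (AT3G10800), the membrane-anchored factor of endoplasmic reticulum and heat stress, had 162, 152 and 139 in treated Zat12 against 102, 101 and 93.9 in untreated Zat12. In wildtype the signals were 166, 161 and 150.4 with H2O2 against 77.3, 80.1 and 96.1 without. The groups did not overlap in either genotype, and the fold change was 0.60 (SE 0.12, limma adjusted p = 0.00152) in Zat12 and 0.89 (SE 0.12, adjusted p = 2.26e-05) in wildtype on the log2 scale. The difference between these responses, -0.30 (95% interval -0.65 to 0.06), was not called (adjusted p = 0.737). Adjusted for the 25S control, which in wildtype goes with treatment, the wildtype value was 0.69 and called (adjusted p = 0.00668).

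BZIP17 (AT2G40950), the third factor of this response and also known from salt stress, was not called in either genotype. It had 44.1, 92.2 and 47.9 in treated Zat12 against 78.2, 93.2 and 79.9 in untreated Zat12, a log2 fold change of -0.50 (SE 0.20, limma adjusted p = 0.104). The wildtype signals were 76.6, 99 and 84.8 with H2O2 against 77.5, 68.8 and 71.4 without, or 0.24 (SE 0.20, adjusted p = 0.429). Of the treated Zat12 arrays, replicates 1 and 3 were low and replicate 2 lay among the untreated ones. Without replicate 2 the Zat12 value was -0.82 and called (limma adjusted p = 0.0011). It was not called without replicate 1 (-0.31, adjusted p = 0.382) or without replicate 3 (-0.37, adjusted p = 0.328), so the value depended on which array was left out. The difference between the genotypes in this response was -0.74 (95% interval -1.35 to -0.14), with an unadjusted p of 0.019 and an adjusted p of 0.621 by limma.

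Of 9 genes of the folding machinery in the endoplasmic reticulum that this pathway controls, 2 had a named probe set, and both were tested. In Zat12 0 of the 2 rose and 1 fell, where 8.16% of all probe sets were called higher and 9.12% lower. In wildtype 0 rose and 1 fell, where 9.59% were called higher and 12.4% lower. A list of 2 genes is too short to be read against these shares. The calreticulin CRT1b, a chaperone of glycoproteins, had 436, 455 and 404 in treated Zat12 against 531, 609.5 and 526 in untreated Zat12 (-0.36, limma adjusted p = 0.038). In wildtype its log2 fold change was -0.25 (adjusted p = 0.132). The co-chaperone ATERDJ3B had 115, 148 and 139 in treated wildtype against 189.5, 156 and 187 in untreated wildtype (-0.40, adjusted p = 0.0241), and its log2 value in Zat12 was -0.25 (adjusted p = 0.183). After 1 hour the transcripts of BZIP60 and BZIP28 were higher, and neither of these chaperone transcripts was called higher. Both drops were small. The CRT1b call ended under 8 of 25 alternatives. These were the threshold of 0.01, median scaling (-0.33, adjusted p = 0.0828), no mean-variance trend (adjusted p = 0.0715) and 5 single arrays left out (adjusted p up to 0.154 without untreated Zat12 replicate 2, at -0.29). The ATERDJ3B call ended under 6 of 25. These were the threshold of 0.01, the fit on the compared groups only (adjusted p = 0.0696), adjustment for the 25S control (-0.46, adjusted p = 0.0919) and 3 single arrays left out (up to 0.126 without treated wildtype replicate 1, at -0.29).

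**Figure D2:**
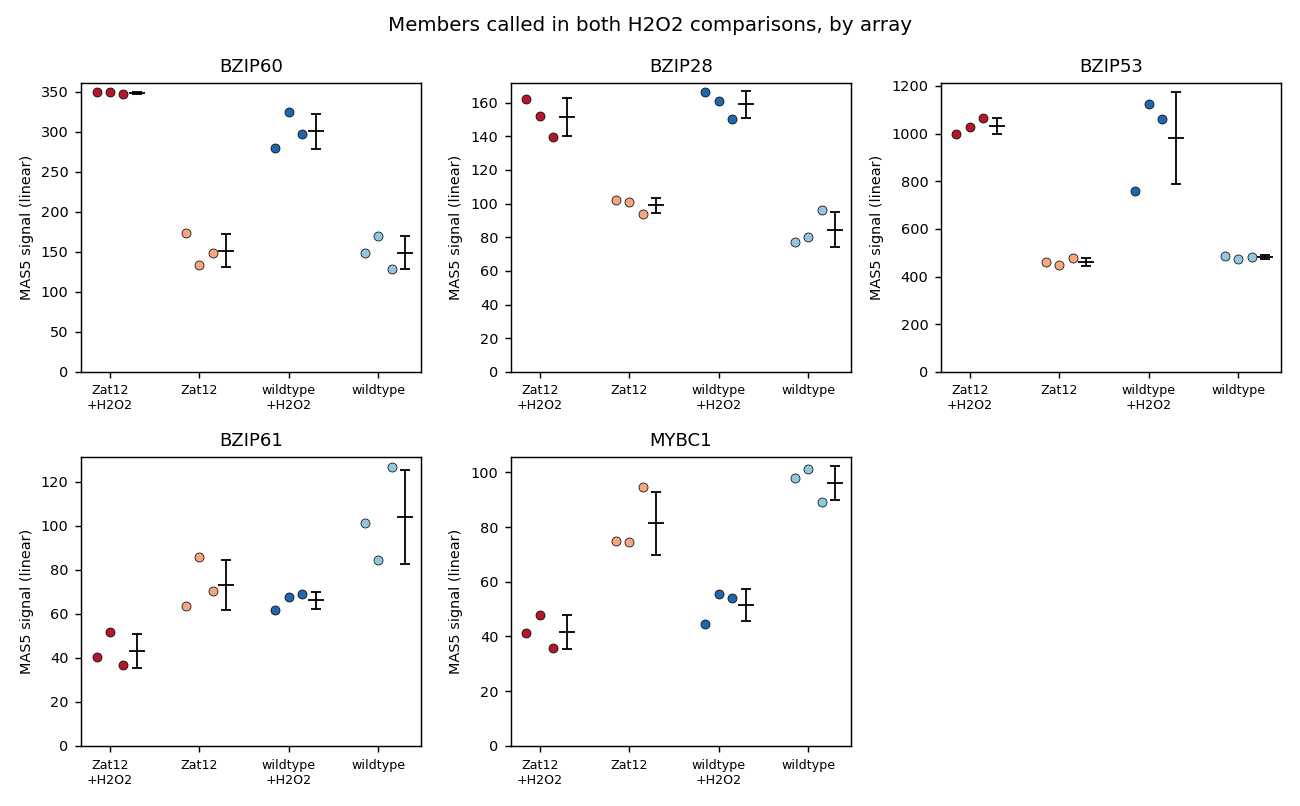
MAS5 signal (y axis, linear, arbitrary units) of the 5 members called in both H2O2 comparisons, on each of the 12 arrays; points are arrays in the order of replicates 1 to 3, and the bar beside them is the mean ± SD of the group (n = 3). BZIP60, BZIP28 and BZIP53 are higher on every treated array than on every untreated array of the same genotype, and BZIP61 and MYBC1 are lower.

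BZIP53 (AT3G62420) belongs to group S, whose proteins pair with those of group C and control amino acid and seed storage genes. Its signals were 997, 1029 and 1064 in treated Zat12 against 459.8, 447 and 479 in untreated Zat12. In wildtype they were 759, 1125 and 1059 with H2O2 against 487, 473 and 484 without. The untreated arrays of both genotypes lay close together, with 462 ± 16.1 in Zat12 and 481 ± 7.28 in wildtype (SD, n = 3 each), and treated wildtype replicate 1 was the lowest treated array. The rise was 1.15 (SE 0.12, limma adjusted p = 1.58e-06) in Zat12 and 1.00 (SE 0.12, adjusted p = 8.79e-06) in wildtype on the log2 scale. None of the 5 carbon starvation genes listed as possible targets had a named probe set, so they were not analysed here.

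The other group S member that passed, bZIP44 (AT1G75390), had 56.8, 53.4 and 55.5 in treated Zat12 against 61.5 and 74.3 on the 2 untreated Zat12 arrays with a value. Its wildtype signals were 51.9, 61.6 and 56.7 with H2O2 against 59.3, 72.8 and 55.6 without, and the groups overlapped in wildtype only. It was not called, with log2 fold changes of -0.28 (95% interval -0.63 to 0.07) in Zat12 and -0.13 (-0.44 to 0.18) in wildtype. Both intervals lie below those of BZIP53.

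BZIP61 (AT3G58120) is a group E factor. It had 40.6, 51.5 and 36.8 in treated Zat12 against 63.4, 85.6 and 70.5 in untreated Zat12, and 61.6, 67.8 and 68.8 in treated wildtype against 101, 84.3 and 127 in untreated wildtype. Treated arrays were below untreated ones within each genotype, and the treated wildtype arrays lay within the range of the untreated Zat12 arrays or just below it. The log2 fold change was -0.73 (SE 0.17, limma adjusted p = 0.00483) in Zat12 and -0.62 (SE 0.17, adjusted p = 0.0131) in wildtype. The wildtype call ended without untreated wildtype replicate 3 (-0.47, adjusted p = 0.0737) and without treated wildtype replicate 1 (-0.57, adjusted p = 0.0545). Adjusted for the 25S control, the wildtype value was -0.98 (adjusted p = 0.00477).

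MYBC1 (AT2G40970) fell in both genotypes. It had 41.1, 47.9 and 35.7 in treated Zat12 against 74.8, 74.7 and 94.6 in untreated Zat12, and 44.7, 55.4 and 54.1 in treated wildtype against 98.1, 101 and 89 in untreated wildtype. No treated array reached the lowest untreated one. The log2 fold change was -0.92 (SE 0.15, limma adjusted p = 0.000231) in Zat12 and -0.87 (SE 0.15, adjusted p = 0.000383) in wildtype, or -0.75 in wildtype after adjustment for the 25S control (adjusted p = 0.0305). In the TAIR10.1 gene order MYBC1 lies close to BZIP17 on chromosome 2, with 2 protein-coding genes between them, and BZIP17 was not called.

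The remaining tested bZIP members were not called. bZIP19 (AT4G35040), an activator of zinc transporters under zinc deficiency, had 119.7, 149 and 134 in treated Zat12 against 179, 147 and 165 in untreated Zat12. Wildtype arrays gave 129, 141 and 136 with H2O2 against 139.6, 159 and 175 without. Its treated and untreated arrays overlapped in both genotypes, with log2 fold changes of -0.28 (95% interval -0.54 to -0.02) and -0.21 (-0.47 to 0.05) in Zat12 and wildtype. bZIP52 (AT1G06850), a group I factor, read 68.3, 81.7 and 60.0 in treated Zat12 against 70.7 and 57.7 on 2 untreated Zat12 arrays, and 80.2, 72.4 and 67.1 in treated wildtype against 73.4, 64.9 and 68.5 in untreated wildtype. Its intervals were -0.23 to 0.46 in Zat12 and -0.23 to 0.39 in wildtype.

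None of the 4 tested bHLH members was called under H2O2 by limma in either genotype, and 0 of the 4 had an unadjusted p below 0.05 in either. With 17.3% of all tested probe sets called in Zat12 and 22% in wildtype, 0 of 4 is near the share over all probe sets and is not a result about these genes. The genes bHLH34, bHLH104 and bHLH115 belong with ILR3 to the clade that switches on the iron deficiency response. bHLH115 (AT1G51070) had 366, 319.6 and 336 in treated Zat12 against 364 and 363 on 2 untreated Zat12 arrays, and 425, 399.8 and 391 in treated wildtype against 429.6, 349 and 423 in untreated wildtype. Its log2 fold changes of -0.09 (95% interval -0.35 to 0.17) and 0.02 (-0.21 to 0.25) in Zat12 and wildtype have narrow intervals around 0. bHLH34 (AT3G23210) varied more, with 51.3, 58.9 and 54.3 in treated Zat12 against 56.1 and 57.6 on 2 untreated Zat12 arrays, and 46.6, 42.5 and 77 in treated wildtype against 43.9, 63.5 and 52 in untreated wildtype. Its intervals, -0.52 to 0.42 in Zat12 and -0.39 to 0.44 in wildtype, still exclude a doubling.

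bHLH104 (AT4G14410) had 127, 170.2 and 171 in treated Zat12 against 106 and 154 on 2 untreated Zat12 arrays. Wildtype arrays read 123, 120.2 and 137 with H2O2 against 163, 167 and 140.2 without, so that treated wildtype arrays were all below untreated ones while the Zat12 groups overlapped. Neither change was called (0.27, limma adjusted p = 0.323 in Zat12, and -0.30, adjusted p = 0.177 in wildtype). The difference between these responses was 0.57 (95% interval 0.08 to 1.06), with an unadjusted p of 0.0248 and an adjusted p of 0.626. bHLH121 (AT3G19860), a partner of this clade, read 116, 108 and 102 in treated Zat12 against 98.6, 90.8 and 94.6 in untreated Zat12, and 136, 117 and 109.8 in treated wildtype against 123, 131 and 90.9 in untreated wildtype. The Zat12 groups did not overlap, with treated above untreated, and the wildtype groups did. The log2 fold changes were 0.19 (adjusted p = 0.398) in Zat12 and 0.08 (adjusted p = 0.718) in wildtype.

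Of a list of 11 iron deficiency genes, 2 had a named probe set, the member BHLH101 and POPEYE (PYE), a bHLH repressor that is itself induced by iron deficiency. PYE had 125, 155 and 114 in treated Zat12 against 116, 112 and 71.1 in untreated Zat12. The wildtype signals were 150.0, 129 and 122 with H2O2 against 73.4, 76.3 and 75 without. The wildtype groups were well apart, and the Zat12 groups overlapped, since untreated replicates 1 and 2 were close to the lowest treated array. PYE rose in wildtype (0.81, SE 0.17, limma adjusted p = 0.00186). Adjusted for the 25S control, which in wildtype goes with treatment, PYE was at 0.50 and not called (adjusted p = 0.164). In Zat12 its value was 0.41 (adjusted p = 0.106), and the difference between the genotypes was not called (-0.40, adjusted p = 0.75). ILR3, the fourth gene of the clade, was not called in Zat12 (-0.19, adjusted p = 0.37) or wildtype (0.06, adjusted p = 0.812).

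**Figure D3:**
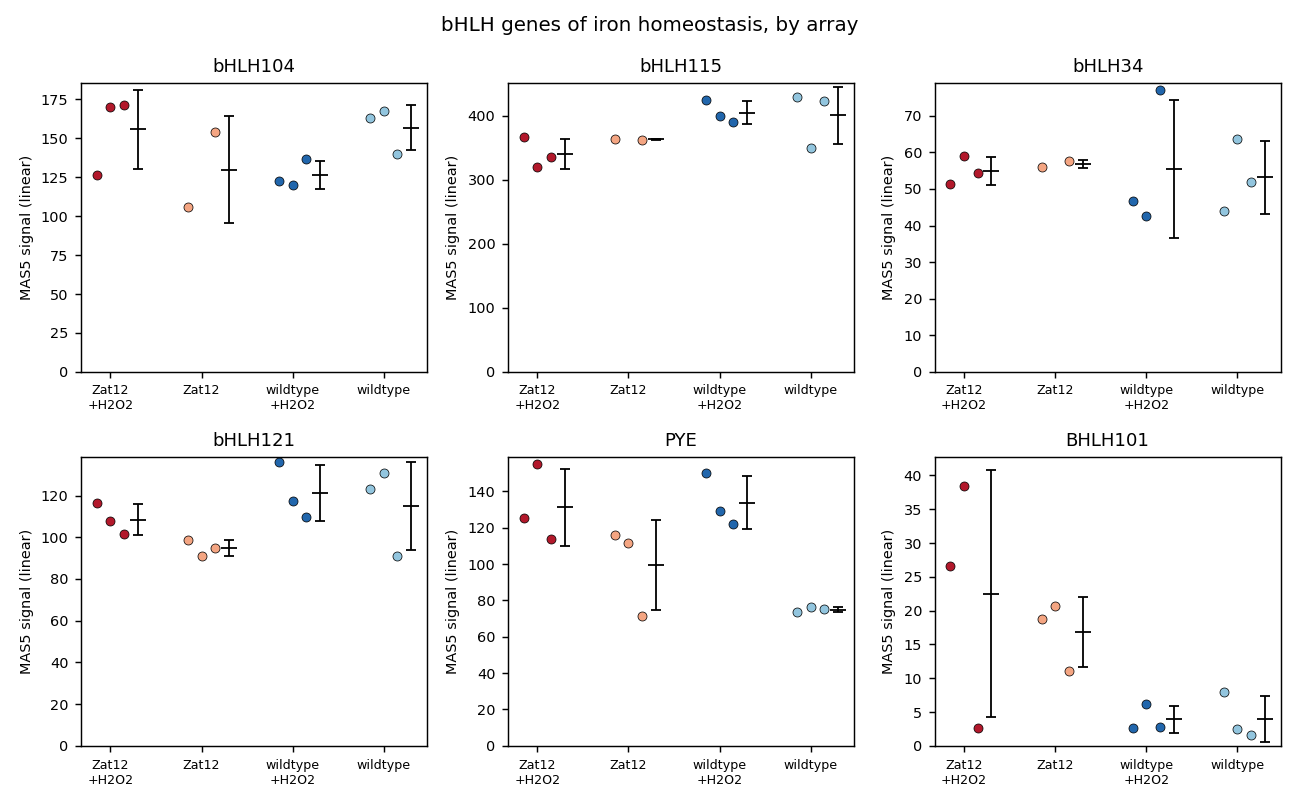
MAS5 signal (y axis, linear, arbitrary units) of the 5 bHLH members and of PYE on each array; points are arrays in the order of replicates 1 to 3, and the bar is the mean ± SD of the group (n = 3, or 2 for bHLH104, bHLH115 and bHLH34 in untreated Zat12). Every treated wildtype array of PYE lies above the untreated ones, 0 of the 4 tested bHLH members were called under H2O2, and BHLH101 lay below the signal filter.

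None of the 13 tested members was called between Zat12 and wildtype by limma, with or without H2O2. Without treatment 0 were called, where 1.22% of all probe sets were (0.725% higher and 0.498% lower), and 1 of the 13 had an unadjusted p below 0.05. Under H2O2 0 were called, where 2.92% of all probe sets were (1.52% higher and 1.4% lower), and 3 had an unadjusted p below 0.05. The difference between the genotypes in their H2O2 response was called for 0 of the 13, where 0.11% of all probe sets were, and 2 had an unadjusted p below 0.05, BZIP17 and bHLH104. The median log2 difference of Zat12 over wildtype was -0.06 without treatment and -0.07 under H2O2 over the 13, beside -0.00 and -0.01 over all tested probe sets.

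BZIP61 was the member with the lowest unadjusted p in both of these comparisons. Its signals, given above, averaged 43 ± 7.65 in treated Zat12 against 66.1 ± 3.93 in treated wildtype, and 73.2 ± 11.4 in untreated Zat12 against 104 ± 21.4 in untreated wildtype (SD, n = 3 each). Under H2O2 every Zat12 array was below every wildtype array, as for 12.2% of all probe sets, and without treatment the groups overlapped. The log2 difference was -0.60 (95% interval -0.95 to -0.24, limma adjusted p = 0.063) under H2O2 and -0.48 (-0.84 to -0.13, adjusted p = 0.217) without treatment. Under H2O2 BZIP61 passed the threshold under 3 of 25 alternatives, at -0.60 in each, and was not called under the other 22. The 3 were adjustment for the 25S control (limma adjusted p = 0.0303) and leaving out untreated wildtype replicate 2 (0.0385) or 3 (0.0495). Those untreated arrays are not in this comparison and enter it only through the shared spread. Leaving out single arrays of the compared groups gave adjusted p from 0.0519 to 0.231, and no filter gave 0.135. The replicate numbers paired the treated arrays weakly, and with the replicate number as a block 0 of the 13 were called.

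Under H2O2 BZIP17 was at -0.55 (95% interval -0.98 to -0.12, limma adjusted p = 0.169), with overlapping groups. Without treated Zat12 replicate 2 it was at -0.87 and called (adjusted p = 0.00793). Without replicate 1 (-0.36, adjusted p = 0.451) or replicate 3 (-0.42, adjusted p = 0.461) of that group it was not called. bHLH115 was at -0.25 (-0.48 to -0.02, adjusted p = 0.259), with each treated Zat12 array below each treated wildtype array. BZIP60 was the reverse case, with each treated Zat12 array above each treated wildtype array, as for 11.2% of all probe sets. Without treatment, BZIP17 alone of the 13 had groups apart, Zat12 above wildtype, as for 9.59% of all probe sets, and 9.01% lay the other way. The intervals of the members called under H2O2 other than BZIP61 bound any genotype difference. For BZIP53 the interval of Zat12 over wildtype was -0.32 to 0.20 without treatment and -0.17 to 0.35 under H2O2. For BZIP60 it was -0.24 to 0.29 and -0.05 to 0.48, for BZIP28 -0.03 to 0.48 and -0.32 to 0.18, and for MYBC1 -0.56 to 0.08 and -0.61 to 0.03, in the same order. A doubling or halving lies outside all of these intervals.

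**Figure D4:**
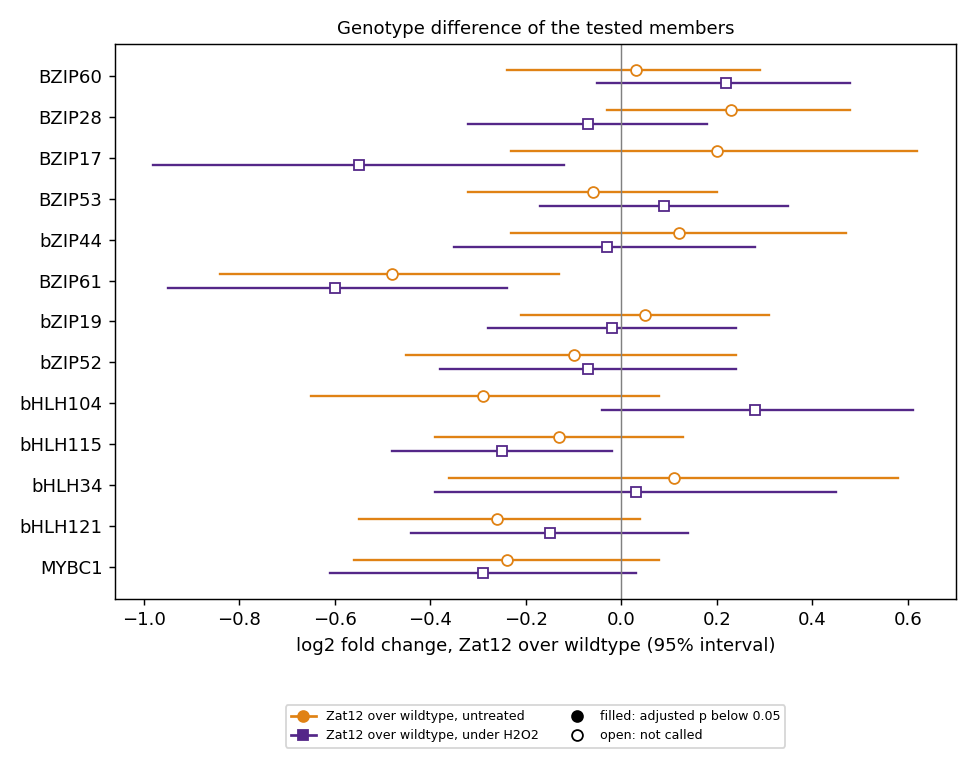
Log2 fold change of Zat12 over wildtype (x axis) for the 13 tested members (rows), without treatment (orange circles) and under H2O2 (purple squares), with unadjusted 95% intervals as lines; open symbols were not called, and 0 of the 13 were called in either comparison. The intervals of BZIP61 lie below 0 in both comparisons before adjustment.

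The 8 members below the signal filter were BZIP24, BZIP34, bZIP42, bZIP43, bZIP48, bZIP58, BHLH101 and NAC014, and they were not part of the test above. At such signals a value may be mostly background, and whether these genes were expressed cannot be read from it. BZIP34, a group E factor known from pollen, ranged over 0.697 to 2.66 on the 12 arrays, bZIP42 over 2.41 to 12.2, bZIP48 over 1.53 to 17.6, bZIP43 over 4.08 to 24.1 and bZIP58 over 6.78 to 26.3, the last 4 being of group S. NAC014 (AT1G33060), the only NAC member, had 6.23, 32.2 and 24.7 in treated Zat12 against 22, 32.3 and 20.3 in untreated Zat12, and 25.9, 20.1 and 23.2 in treated wildtype against 42, 15.3 and 35.8 in untreated wildtype. Its groups overlapped in every comparison.

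With no filter, so that 22746 probe sets were tested, BZIP24 (AT3G51960) was the only one of the 8 to be called, and only for H2O2 in Zat12, where 9.79% of all probe sets were called. This group F factor, a relative of bZIP19 described in salt stress, had 3.83, 3.92 and 11.2 in treated Zat12 against 18.9 and 17.2 on 2 untreated Zat12 arrays. Wildtype arrays gave 17.6, 12.3 and 15.7 with H2O2 against 15.1, 15.6 and 15.3 without. Treated Zat12 was the low group, with a log2 fold change of -1.27 (SE 0.35, limma adjusted p = 0.041) in Zat12 and -0.02 (adjusted p = 0.984) in wildtype, and a difference between them of -1.25 (adjusted p = 0.71). Signals this close to the offset of 3 make the size of the change depend on it.

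BHLH101 (AT5G04150), a bHLH factor that pairs with FIT to activate iron uptake, had 26.6, 38.4 and 2.6 in treated Zat12 against 2.64, 6.21 and 2.85 in treated wildtype, and 18.8, 20.7 and 11 in untreated Zat12 against 7.95, 2.46 and 1.62 in untreated wildtype. The untreated Zat12 arrays were all above the untreated wildtype arrays, as for 9.59% of the probe sets that passed the filter. That share was not computed for probe sets below it. Of the treated Zat12 arrays, 1 was as low as wildtype. With no filter the difference was not called under H2O2 (limma adjusted p = 0.306), where 1.11% of all probe sets were. Nor was it called without treatment, where 0.264% were and where it was 1.57 on the log2 scale (SE 0.60, adjusted p = 0.396).

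**Figure D5:**
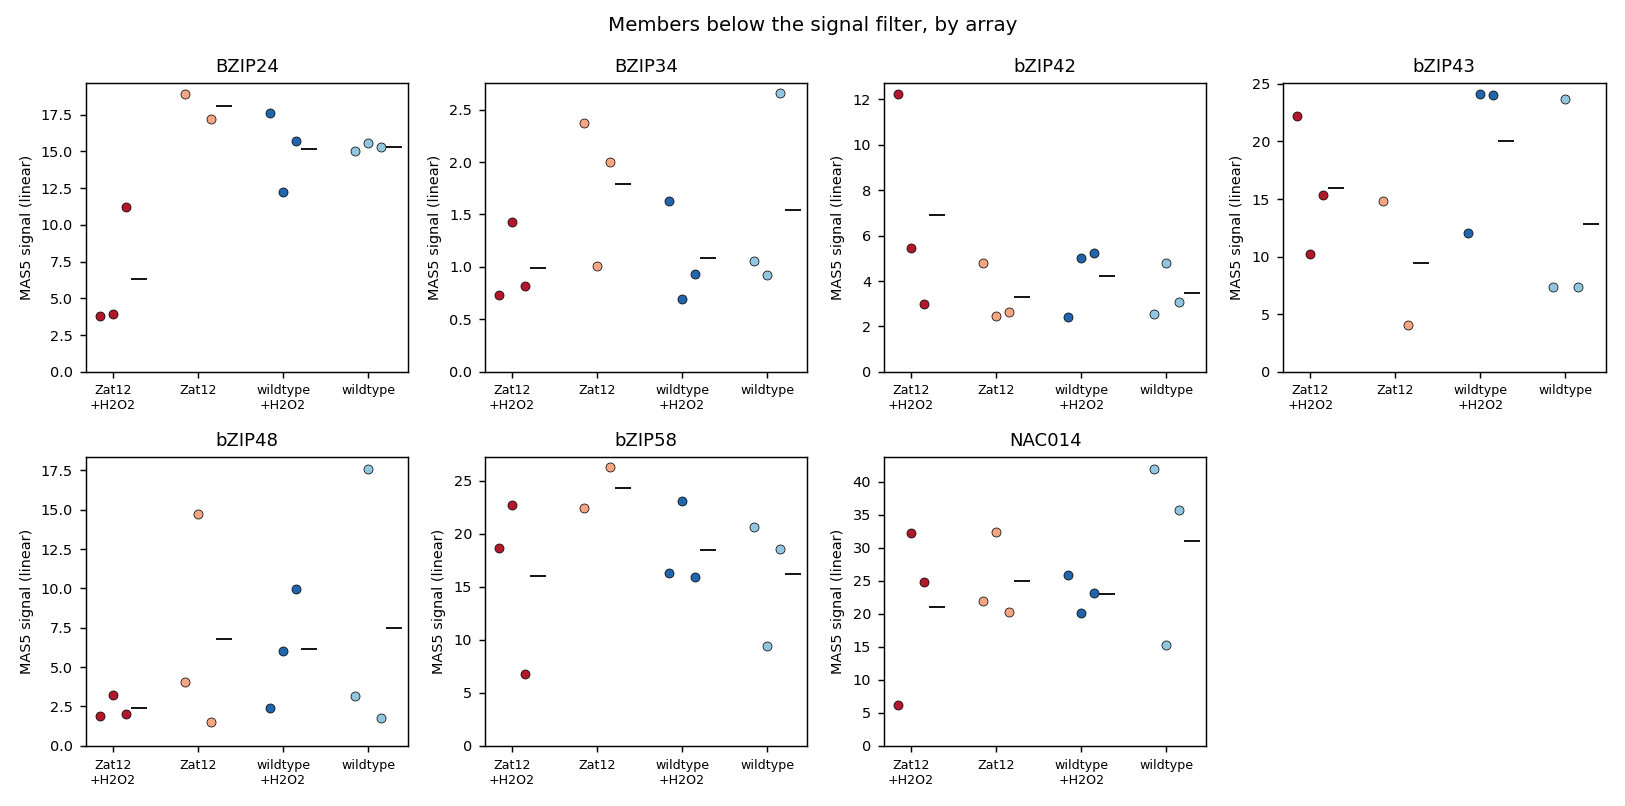
MAS5 signal (y axis, linear, arbitrary units, with a separate scale per panel) of 7 of the 8 members below the signal filter on each array; points are arrays in the order of replicates 1 to 3 and the short line is the group mean. The groups overlap in most panels, and in BZIP24 the treated Zat12 arrays are the lowest.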

How the data were processed

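The data are 12 arrays of total RNA from seedlings in 4 groups of 3. The deposited value of a probe set on an array is an intensity, the linear signal that MAS5 gives, as the submitters' processing notes name that tool. Its version and detection calls are not given in the sources used here. With 2% of values trimmed at each end the mean was 100.01 on 11 arrays and 100.1 on 1, so the arrays were already scaled and no further normalization was applied. The number of arrays limits the precision.

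After removal of 64 control probe sets, signals were turned into log2(signal + 3), 3 being the rounded 10th percentile of all values, and fold changes on that scale understate changes at low signal. Of 22746 probe sets 13647 had a mean above the 40th percentile. limma 3.58.1 in R 4.3.3 fitted the 4 groups in 1 model with a mean-variance trend and 5 contrasts, with Benjamini-Hochberg adjustment over all tested probe sets. Empty cells stayed empty. The code was tested on simulated data.

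Symbols come from the platform annotation, and loci and gene order from a RefSeq table of TAIR10.1, in which all 21 members were found. No genome build is named with the values, so no coordinates are given, and no sequences are shown. Genes named were all called members, the 3 with the highest mean signal per family and every member of the bHLH, MYB and NAC families; all members were then described, a choice made after values were seen. Pathway lists on the unfolded protein response, iron deficiency and carbon starvation are given because members act in them. Members and lists were chosen with earlier results of these data known. The deviations of same-numbered arrays from their group means correlated at 0.12, 0.15 and 0.13 between treated Zat12 and treated wildtype, the only comparison in which all 3 pairs exceeded 0.1. Alternatives covered the offset, filter, scaling, variance trend, arrays fitted, threshold, replicate block, 25S control (log2 signal) as a covariate, empty cells, ambiguous probe sets, the symbols used and each array left out in turn. Python 3.11.15, pandas 2.3.3 and matplotlib 3.10.9 drew the plots.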

Additional observations from a re-analysis of the deposited data

How the results depend on the processing

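The counts of called members hardly depended on the processing. For H2O2 in Zat12, 5 members were called, 6 with no filter, and 5 to 6 with each array left out in turn; for H2O2 in wildtype, 5 were called, and 4 to 5 with each array left out. For untreated Zat12 over wildtype and for the difference between the H2O2 responses, 0 were called under every alternative run. For Zat12 over wildtype under H2O2, 0 were called, 0 to 1 with each array left out, and 1 after adjustment for the log2 signal of the 25S control. With the replicate block the counts were 5 for H2O2 in Zat12, 5 for H2O2 in wildtype and 0 in the other comparisons, so the block changed no count. Outside the treated genotype comparison, at least 1 of the 3 same-numbered pairs had a correlation under 0.1. BZIP53, BZIP60, BZIP28 and MYBC1 were called in both genotypes under all 25 alternatives run for each. Their log2 fold changes lay between 1.13 and 1.18, 1.11 and 1.29, 0.54 and 0.65, and -1.02 and -0.80 in Zat12, in that order of genes. In wildtype they lay between 0.89 and 1.18, 0.90 and 1.20, 0.69 and 0.99, and -0.92 and -0.75. Several of the 25 alternatives could not move these log2 values, among them the threshold of 0.01 and leaving out arrays of the other genotype. BZIP61 in wildtype lost its call under 3 of 25 alternatives, 2 of them arrays left out and 1 the threshold of 0.01. None of the 18 single-gene values listed under alternatives turned its direction, and EXPA7 and BZIP24 were not among them. The 18 were kept because they were called in the main fit or, for members, under some alternative. A stable direction was therefore likely in advance. Choosing members by the symbols of the RefSeq table gave the same 13 tested members, and adding its synonyms, an alternative chosen after seeing the data, gave 19 tested members with 5 called under H2O2 in each genotype. Signals near the offset limit what can be said of the 8 members below the filter.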

Other observations

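Further genes of these families carry another symbol in the platform annotation. Through synonyms in the RefSeq table or lists of known family genes 18 such probe sets were found, and 11 passed the signal filter; PYE and ILR3 are among these. Under H2O2 1 of the 11 was called in Zat12 and 2 in wildtype, beside 17.3% and 22% of all tested probe sets. MYC4 (AT4G17880), a bHLH activator of jasmonate responses, fell in wildtype, with 20.3, 18.1 and 12 in treated against 44.5, 37 and 46 in untreated wildtype (-1.22, SE 0.24, limma adjusted p = 0.00164). It passed the signal filter only through its untreated groups, since treated Zat12 at 27.3 ± 6.87 and treated wildtype at 16.8 ± 4.33 (SD, n = 3 each) averaged below the signal of 28.1. With no filter the wildtype value was -1.22 (adjusted p = 0.00705), and at the 50th percentile filter it was not tested, so the size of the drop at such low signals is uncertain. In Zat12 it had 20.7, 34.4 and 26.9 with H2O2 against 36.1 and 47.2 on 2 arrays without (-0.57, adjusted p = 0.173), and the difference between the genotypes was not called (0.65, adjusted p = 0.737). Its relative MYC3 was at -0.29 in Zat12 (adjusted p = 0.31) and -0.49 in wildtype (adjusted p = 0.0614), so neither was called.

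SPATULA (SPT), a bHLH factor of seed germination and fruit development, rose in Zat12, with 93.9, 99.8 and 96.1 in treated against 76 and 65.8 on 2 untreated arrays (0.43, limma adjusted p = 0.0393). That call ended under 9 of 24 alternatives, among them the fit on the compared arrays only (adjusted p = 0.0571) and the adjustment for the 25S control (0.36, adjusted p = 0.0974). In wildtype SPT was at 0.14 (adjusted p = 0.459). The light signalling factor HYH, the group I factors AT2G40620 (bZIP18), AT4G38900 (bZIP29), AT2G21230 (bZIP30) and AT1G06070 (bZIP69), and AT5G47390 (KUA1), a MYB-like repressor of class III peroxidase genes, were not called in any comparison. For KUA1 the log2 fold change under H2O2 was -0.03 (95% interval -0.28 to 0.22) in Zat12 and 0.21 (-0.04 to 0.47) in wildtype.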
